A study of Mus musculus with 10 samples.

Results

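Of the 62322 rows of the deposited expression table, 37076 were transcribed intervals of the nuclear genome that carried no gene symbol, and these are described here. They were chosen by 1 label only, a blank symbol in the annotation, so no measured value entered the choice. A further 25233 rows carried a symbol and 13 rows without one lay on the mitochondrial genome and were used for comparison. Libraries came from cells that the labels call hepatic stellate cells, isolated from livers of C57BL/6J mice by enzymatic digestion in situ, a density gradient and cell sorting. The 5 hypHSC libraries (hypertrophied hepatic stellate cells) came from mice fed a choline-deficient, L-amino acid-defined, high-fat diet (CDAHFD), replicates 1 and 2 for 13 weeks at an age of 19 weeks and replicates 3 to 5 for 12 weeks at an age of 18 weeks. The 5 qHSC libraries (quiescent hepatic stellate cells) came from mice on standard diet, replicates 1, 2 and 5 at an age of 36 weeks and replicates 3 and 4 at 34 weeks. Diet, age, digestion and sorting gate differed together between the groups and cannot be told apart.

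A gene annotation built from transcript evidence holds many intervals without a gene symbol, and some of them carry a name in another annotation. Some are long non-coding RNAs. Some are processed pseudogenes, which are copies of a spliced messenger RNA inserted elsewhere in the genome, and some are nuclear copies of mitochondrial DNA. Others are retained introns or the far ends of named genes. A short read from such an interval can match more than 1 place, because a copy keeps the letters of its source. Hepatic stellate cells store vitamin A in the resting liver and turn into matrix-producing myofibroblasts in fibrosis.

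The libraries held 36101377 to 52199207 reads in the table. All 8 markers listed for hepatic stellate cells were called lower in hypHSC. Their summed level was 23309 to 54850 normalized counts in hypHSC libraries and 855347 to 1208253 in qHSC libraries, and no marker of the list was at 0 in either group. Of 8 macrophage markers 7 were called higher in hypHSC, and their sum was 983742 to 1371719 in hypHSC libraries against 50846, 4320, 8697, 109422 and 7674 in qHSC 1 to 5. All 3 cholangiocyte markers and both tested neutrophil markers of 3 were also called higher in hypHSC, at sums of 377 to 2454 and 1389 to 5625 against at most 56.1 and 109.5 in qHSC. Of the 6 endothelial markers 1 was called higher and 1 lower, of the 6 hepatocyte markers 1 lower, and of the T and NK cell and B cell lists none. The hypHSC libraries therefore did not show the stellate markers at the level of qHSC. The part of these marker levels in the results below was not tested, and in RNA from sorted populations fewer cells of a type and less RNA per cell cannot be told apart.

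A set of 3 entries is shown as sequence, because the results turn on where their reads can match. All are on the plus strand of GRCm39 (mm39), 5′ to 3′. The first lies in a nuclear copy of mitochondrial DNA at chr1:24654791-24654910, with 1 read length of 59 bases in capitals. The second, at chr3:50579507-50579626, and the third, at chr11:61508839-61508958, come from one of the largest rises and one of the largest falls. No 59-base stretch of either entry occurs elsewhere in the genome, and capitals mark the longest run of A or T in the entry.
GSMG0060123: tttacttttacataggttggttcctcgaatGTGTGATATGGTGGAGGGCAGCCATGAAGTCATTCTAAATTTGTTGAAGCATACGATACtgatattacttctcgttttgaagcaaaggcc
GSMG0035250: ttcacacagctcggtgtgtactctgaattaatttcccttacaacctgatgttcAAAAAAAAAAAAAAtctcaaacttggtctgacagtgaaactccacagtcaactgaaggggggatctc
GSMG0007517: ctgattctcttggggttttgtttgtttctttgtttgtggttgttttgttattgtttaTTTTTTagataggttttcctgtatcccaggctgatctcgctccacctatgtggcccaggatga

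Most entries without a symbol were silent or nearly so. No read was counted on 19190 of the 37076 entries in any library, which allows up to 3 reads per library, or 2.25 to 4.54 normalized counts depending on the library. Reads were found on 17886 entries in at least 1 library and on 5811 in all 10. A level of 10 normalized counts or more in 5 or more libraries was reached by 9677 entries (26.1%), against 14630 of 25233 rows with a symbol (57.98%). Of the 9677, 1232 reached it in exactly 5 libraries, and 847 further entries reached it in 4 and were not tested. An entry high in 1 group alone can pass through that group, so counts over the tested entries do not stand for all entries.

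Tested entries were longer than those that did not reach this level. The entries had a median length of 727 bases, from 20 to 3103341. A total of 14214 (38.3%) were shorter than the 59-base reads, and 405 of these were tested. Chromosome 10 alone held 2151 such short entries, 62.3% of its entries without a symbol, whereas on chromosome X they made up 7.56%. The tested entries had a median length of 2164 bases and the others 57. Entries of 1000 to under 5000 bases made up 73.3% of the tested ones and those of 200 to under 1000 bases 12.2%. Runs of at least 12 A or 12 T, counted on the plus strand, were present in 34.96% of the tested entries of 1000 to under 5000 bases and in 22.8% of the others of that length, at median lengths of 2359 and 2250 bases. The library kit primes on poly(A), and the part of that step in the difference was not tested.

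By position, 8086 of the 9677 tested entries (83.6%) overlapped a row with a symbol. Another 445 lay within 1000 bases of one, 438 at up to 5000, 524 at up to 50000 and 184 farther away. Placed on the GENCODE M39 annotation, 5338 tested entries touched an annotated exon, 4119 lay in introns only and 220 touched no gene. For 1967, a GENCODE gene shared at least a fraction of 0.5 of the joint span of entry and gene, mainly 904 of the type TEC, GENCODE's class for transcripts that await experimental evidence, and 899 long non-coding RNAs, with 72 protein-coding genes and 52 processed pseudogenes.

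Reads on entries without a symbol took a larger share of the hypHSC libraries. Shares are of counts summed over all rows. Rows can overlap, so a read may be counted on more than 1 of them. The share was 16.3, 12.9, 10.1, 8.63 and 9.003% of reads in hypHSC 1 to 5 and 8.14, 7.72, 8.25, 8.58 and 7.78% in qHSC 1 to 5. The groups did not overlap, but hypHSC 4 was only just above the highest qHSC library. The means were 11.4 ± 3.22% and 8.09 ± 0.355% (SD, n = 5 each), a difference of 3.28 percentage points by an exact two-sided permutation test (p = 0.00794, the smallest that 5 against 5 allows; adjusted p = 0.0191 over 12 library measures). The 2 libraries at 13 weeks of diet were the highest, and without hypHSC 1 the difference was 2.04 percentage points. Without qHSC 1, qHSC 2 or qHSC 5 the exact permutation p was 0.0556.

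**Figure D1:**
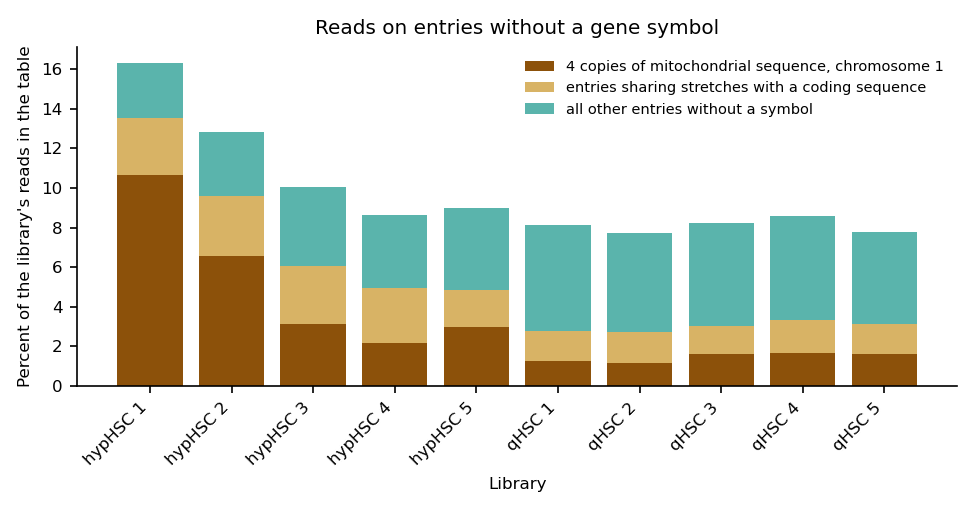
Percent of each library's reads in the table (vertical axis, from 0) on entries without a gene symbol, 1 bar per library, split into the 4 copies of mitochondrial sequence on chromosome 1, 159 entries that share stretches with a coding sequence, and all others. The mitochondrial copies take 10.6% of hypHSC 1 and 6.56% of hypHSC 2 against at most 1.62% of any qHSC library. Of these copies 1 lies inside another, so reads there may be counted on both.

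That share was carried by few entries. The 10 most abundant held 44.2 to 79.7% of the reads on entries without a symbol in hypHSC libraries and 23.4 to 29.2% in qHSC libraries. Without these 10 the order turned, to 4.15 ± 0.659% of reads in hypHSC and 5.95 ± 0.279% in qHSC (exact permutation test, p = 0.00794, adjusted p = 0.0191). Without the 4 mitochondrial copies alone the shares were 6.29 ± 0.472% and 6.65 ± 0.316% (exact permutation test, p = 0.19, adjusted p = 0.228). Entries that overlapped no row with a symbol held 3.02 ± 0.405% of reads in hypHSC and 2.13 ± 0.147% in qHSC (exact permutation test, p = 0.0159, adjusted p = 0.0239). Among them is GSMG0051025, a copy of Ftl1 sequence described below. It held 627585, 768729, 762879, 657456 and 173802 reads in hypHSC 1 to 5. The totals of these libraries were 43069991, 49334881, 49846581, 47861757 and 36101377. In qHSC 1 to 5 it held 80538, 73500, 82686, 116469 and 99027 reads, of 39416597, 42581527, 43264511, 42300741 and 52199207. The share without this entry was not computed, and the difference may rest on it. A larger share in hypHSC is therefore not shown for the other entries apart.

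Although the share of reads was larger, fewer entries were detected in hypHSC. Detection was counted on entries without a symbol only, so whether rows with a symbol differed in the same way is not known. More than 3 reads were counted on 10683, 10111, 11106, 8980 and 7569 entries in hypHSC 1 to 5 and on 11596, 11203, 11777, 11376 and 11041 in qHSC 1 to 5. Only hypHSC 3 lay within the range of qHSC. The difference of -1709 entries (hypHSC minus qHSC) was past the threshold by an exact permutation test (means 9690 ± 1429 and 11399 ± 295, p = 0.0159, adjusted p = 0.0239). After each library was thinned to the 36101377 reads of the smallest, the means were 9516 and 11284 (exact permutation test, p = 0.0159). Without qHSC 3 the unthinned difference was -1614 (exact permutation test, p = 0.0556).

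By normalized count, nuclear copies of mitochondrial sequence took 4 of the first 5 places among the entries. These 4 entries, 1 of them inside another, lie on chromosome 1 between 24652269 and 24655053, within the span of Lmbrd1, which codes for a lysosomal membrane protein of cobalamin export. Over its 2785 bases the block matched positions 6606 to 9390 of the mitochondrial genome on the opposite strand without a mismatch, and GENCODE lists unprocessed pseudogenes there, among them Atp6-ps. Every 59-base stretch of all 4 entries was also on the mitochondrial genome, so a read of this length cannot be placed by its sequence. Reads were nonetheless counted on them.

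GSMG0060116 (1627 bases) held 3021572, 1782207, 705196, 582459 and 863812 normalized counts in hypHSC 1 to 5. In qHSC 1 to 5 it held 241704, 228980, 294045, 321904 and 355309. All hypHSC libraries were above all qHSC libraries, and hypHSC 1 and 2 were well above the 12-week libraries. The log2 fold change was 2.00 ± 0.46 (SE, limma, adjusted p = 0.00448), and the call was lost only with Hprt, Pgk1 and Actb as the scale (1.06, adjusted p = 0.0712). GSMG0060124, which lies inside it and matches Atp6-ps, rose by 2.00 ± 0.43 on the log2 scale (limma, adjusted p = 0.0028), and GSMG0060123 by 2.44 ± 0.50 (limma, adjusted p = 0.00219). GSMG0060115 had a log2 fold change of 1.76 ± 0.61 (limma, adjusted p = 0.0342), and this call was lost in 10 of 22 other fits, among them the 12-week libraries alone with a log2 fold change of 0.70 (adjusted p = 0.0826). For Lmbrd1 itself the log2 fold change was -0.42 ± 0.23 (limma, adjusted p = 0.167).

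The copies followed the mitochondrial rows library by library. The 13 mitochondrial rows took 12.8, 7.27, 3.10, 2.21 and 3.42% of reads in hypHSC 1 to 5 and 1.25 to 1.61% in qHSC libraries. The summed level of the 4 copies divided by that of the mitochondrial rows was 0.833, 0.902, 1.01, 0.971 and 0.864 in hypHSC 1 to 5. In qHSC 1 to 5 the quotient was 0.876, 0.926, 1.01, 1.01 and 1.03. The 2 groups overlapped in this quotient, with means of 0.916 ± 0.0730 and 0.970 ± 0.0658 (exact permutation test, p = 0.238, adjusted p = 0.26). No mitochondrial row covers the positions between 6941 and 9203, to which most of the block on chromosome 1 matches. The quotient therefore compares mostly different mitochondrial positions, not each copy with its own source. Both sums hold rows that lie inside other rows, and reads there may be counted on each. The quotient is given beside the change of the copies, and the part of the mitochondrial RNA in that change was not tested.

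Copies of coding sequence formed another abundant group. Among the 9062 tested entries of 59 to 20000 bases, 401 shared at least 50% of their 59-base stretches with another place in the genome, the mitochondrial copies included, and these held 59.9% of all reads on entries without a symbol. The 5040 entries with no stretch elsewhere held 19.5%. At least 10% of stretches were shared with the coding sequence of a gene elsewhere in 159 entries, which held 22.0% of those reads, beside 33.7% on the 4 mitochondrial copies. Reads on overlapping entries may be counted on each, so these shares are of summed counts. Of the 159 entries 33 were called higher (20.8%) and 8 lower (5.03%), beside 16.1% and 22.1% of all tested rows. A tested source gene was found for 156 of them (135 genes), and in 35 pairs entry and source were both called, always the same way. Across the 156 pairs the log2 fold changes of copy and source had a Pearson r of 0.91 and a Spearman rho of 0.91, given as a description, since copy and source share letters and libraries and several copies share a gene.

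GSMG0051025 on chromosome 13 is 240 bases long, lies in a GENCODE gene named Ftl1-ps1 and shares every 59-base stretch with the coding sequence of Ftl1, the ferritin light chain. It held 845675, 795828, 634401, 689737 and 262872 normalized counts in hypHSC 1 to 5 and 72894, 62625, 65099, 99661 and 74200 in qHSC 1 to 5. The groups were far apart, and hypHSC 5 was the lowest of its group. Per 1000 bases it was the highest of the 8 most abundant entries as deposited, at a mean level of 1501246 normalized counts. Its recovered read counts were multiples of 3 in all 10 libraries, so a read may have been counted more than once. The order per 1000 bases may rest on that and was not corrected. The log2 fold change was 3.02 ± 0.34 (limma, adjusted p = 3.36e-05), against 3.01 ± 0.38 for Ftl1, whose means were 2053580 ± 695123 in hypHSC and 241205 ± 49181 in qHSC. GSMG0048321 (832 bases, chromosome 7 from 45108893) overlaps Ftl1 and the TEC gene Gm10252, and its log2 fold change was 2.95 ± 0.34 (limma, adjusted p = 3.71e-05).

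The other abundant copies changed less. GSMG0056295 on chromosome 5 shares 78.3% of its stretches with Hspa8, a constitutive heat shock chaperone. It held 81706 to 135183 normalized counts in hypHSC and 59609 to 118419 in qHSC, and the groups overlapped. Its log2 fold change of 0.48 ± 0.26 was not past the test (limma, adjusted p = 0.149), as for Hspa8 at 0.39 ± 0.26. GSMG0063041 on chromosome 9 shares 89.1% with Ppia, which codes for cyclophilin A. It held 60723 to 98887 normalized counts in hypHSC and 41199 to 45264 in qHSC without overlap, and at a log2 fold change of 0.85 ± 0.18 (limma, adjusted p = 0.00284) it stayed under the fold threshold of 1, as did Ppia at 0.89 ± 0.18. With Hprt, Pgk1 and Actb as the scale both entries had negative log2 fold changes, -0.45 and -0.09.

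**Figure D2:**
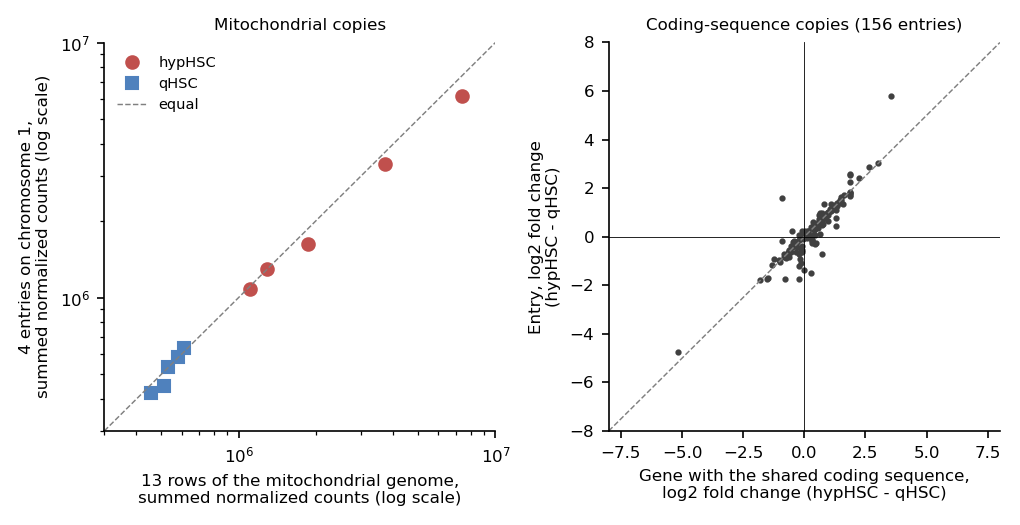
Left, summed normalized counts of the 4 mitochondrial copies on chromosome 1 (vertical, log scale) against the 13 rows of the mitochondrial genome (horizontal, log scale), 1 point per library, with the line of equality dashed. The sums cover mostly different mitochondrial positions. Right, log2 fold change (hypHSC minus qHSC) of 156 entries that share stretches with a coding sequence against that of the source gene, 1 point per entry. On the left all points lie close to the line of equality, at quotients of 0.833 to 1.03, and on the right most lie near it but some lie far off, such as GSMG0014746 at 1.58 against -0.92 for Cnbd2.

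Calls between hypHSC and qHSC were made in a limma fit over all 24320 tested rows, at a log2 fold change of at least 1 in size and an adjusted p of at most 0.05. Of the 9677 entries without a symbol 1307 were called higher in hypHSC and 2213 lower. Called entries made up 36.4%, beside 38.2% of all tested rows and 39.4% of the 14630 rows with a symbol. Higher calls were 13.5%, beside 16.1% of all rows and 17.7% of rows with a symbol. Lower calls were 22.9%, beside 22.1% and 21.6%. The groups did not overlap for 2911 entries (30.1%, against 35.8% of all rows and 39.5% of rows with a symbol). The median log2 fold change was -0.37 over the entries and -0.25 over all rows.

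Read counts per row differed between the kinds of row, with medians of 52.5 normalized counts for tested entries without a symbol and 360.1 for rows with one, which are longer (median lengths 2164 and 21218 bases). Among rows with a mean of 10 to 30 normalized counts, 30.3% of entries and 31.9% of rows with a symbol were called, and at 30 to 100 the shares were 36.2% and 38.9%. At 100 to 300 normalized counts, 42.01% of entries and 42.02% of rows with a symbol were called. At 300 to 1000 normalized counts 44.4% of 664 entries were called and 37.9% of 3560 rows with a symbol, and at 1000 and more 41.8% and 41.2%. These differences were not tested. The balance of higher and lower calls moved with the scale. Higher calls were 37.1% of called entries as deposited, 25.5% with equal library totals and 14.6% with Hprt, Pgk1 and Actb as the scale, where the median of all rows shifted by -0.41 and -0.93 (log2).

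**Figure D3:**
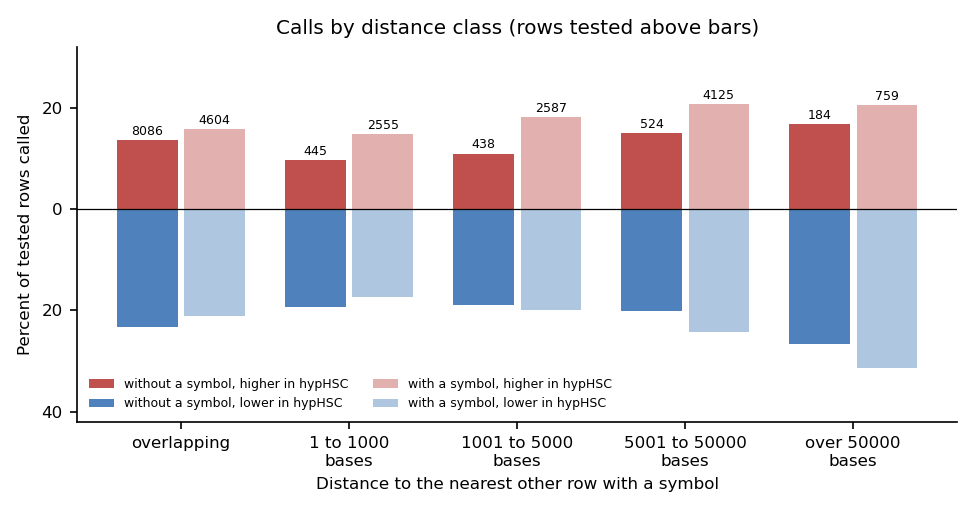
Percent of tested rows called higher (up) or lower (down) in hypHSC by distance to the nearest row with a symbol, for entries without a symbol (solid) and rows with one (pale, distance to the nearest other such row), with the number tested above each bar. Entries over 50000 bases away were called in 43.5% of cases, beside 51.9% of rows with a symbol.

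The share of called entries was higher at larger distance in both kinds of row, which was not tested. It was 28.99% up to 1000 bases, 29.9% up to 5000, 35.3% up to 50000 and 43.5% beyond, and 37.04% among overlapping entries. For rows with a symbol the shares were 32.3, 37.998, 45.02 and 51.9%, and 36.9% for overlapping ones. Entries in introns only were called in 39.6% of cases, those touching an exon in 34.1% and those outside every GENCODE gene in 31.8%. Large falls outnumbered large rises, with 415 entries lower and 153 higher by at least 5 on the log2 scale. Over all tested rows 747 were lower and 588 higher by that much, and among rows with a symbol the order was the other way, with 332 lower and 435 higher. Of the 415 large falls 246, and of the 153 large rises 60, were entries in introns only, a class that held 42.6% of tested entries.

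Within a named gene the entries mostly moved with their host. Of 7918 tested entries overlapping a tested row with a symbol, 2240 had both called, 2199 of them the same way and 41 in opposite ways. The log2 fold changes of entry and host had a Pearson r of 0.81 and a Spearman rho of 0.74 across these pairs (4045 different hosts). For 3897 entries in introns only, r was 0.83. Host and entry can share reads where their intervals overlap, and hosts recur, so these are descriptions. An entry that overlapped several rows with a symbol was given 1 host, by the longest overlap and then by order of rows. For 3820 pairs of overlapping rows with a symbol r was 0.50. Of those pairs 722 had both rows called, 635 the same way and 87 in opposite ways. In 682 of 2922 called entries (23.3%) the host was not called, beside 631 of 1353 called rows (46.6%) in the pairs of overlapping rows with a symbol.

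Entries apart from every row with a symbol followed their neighbour less closely. Across 1277 such pairs r was 0.56 and rho 0.46, beside 0.27 and 0.24 for 7510 pairs of neighbouring rows with a symbol. Both rows were called in 249 pairs with an entry, 220 the same way and 29 in opposite ways. Among the pairs of neighbouring rows with a symbol it was 1325 pairs, 976 the same way and 349 in opposite ways. For the entries, r by distance was 0.62 up to 1000 bases, 0.66 up to 5000, 0.48 up to 50000 and 0.51 beyond. Among the 524 pairs in which the entry had no stretch elsewhere in the genome r was 0.66. Of the 1591 tested entries apart, 528 lay inside the span that GENCODE gives the nearest symbol's gene, so the deposited annotation ended that gene earlier. Of these, 49 were called higher and 107 lower (29.5% in all), beside 34.7% of the other 1063 entries apart and 38.2% of all tested rows.

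**Figure D4:**
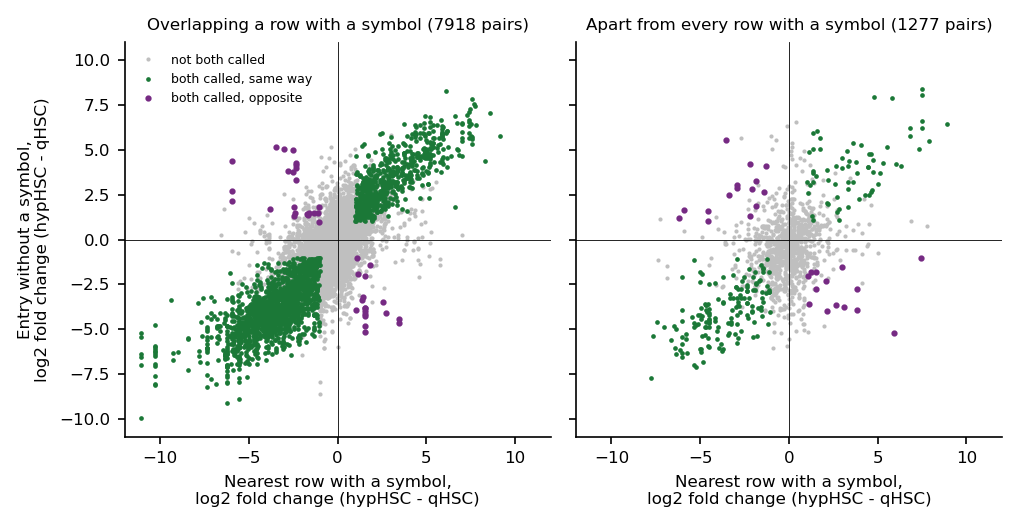
Log2 fold change (hypHSC minus qHSC) of each entry without a symbol (vertical) against that of its nearest tested row with a symbol (horizontal), for 7918 overlapping pairs (left) and 1277 pairs apart (right). Green points are called the same way (2199 and 220 pairs), purple points in opposite ways (41 and 29 pairs), and grey points are not both called.

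In all, 70 of the 2489 pairs with both rows called went in opposite ways, 38 with the entry higher and 32 with the entry lower. Among pairs of rows with a symbol it was 436 of 2047. Several of the 70 pairs share a host, such as Celf2, so they are not separate events. The most abundant entry of the 70 pairs, named after its values were seen, was GSMG0062080 on chromosome 10. It lies 162878 bases from Rspo3, which codes for a Wnt agonist. It shares 75.7% of its 59-base stretches with the coding sequence of Rpl12, a ribosomal protein gene, and 84.9% of them occur elsewhere in the genome. Its mean normalized count was 5805 in hypHSC and 1851 in qHSC, a log2 fold change of 1.63 against -5.94 for Rspo3 and 1.51 for Rpl12. GSMG0053484, within the span of the row named Pde4c, a phosphodiesterase gene, was also called against its assigned host. It held 1565 and 90.2 normalized counts, at a log2 fold change of 4.40 against -5.95. Other rows that may overlap this entry were not compared with it.

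Of the entries apart from any symbol, 186 were called, averaged 100 or more normalized counts in the higher group and had groups that did not overlap, 84 higher in hypHSC and 102 lower. The same filter was not applied to rows with a symbol or to all rows, so these counts only bound the choice below. The 8 largest rises and 8 largest falls among them are given next. They were picked for the size of their change, and the adjusted p-values are those of the fit over all rows.

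The 2 largest rises lie in 1 stretch of chromosome 3 beyond Slc7a11, the cystine transporter subunit used for glutathione synthesis. GSMG0035248 (Gm6209, a long non-coding RNA of 90825 bases, at 72785 bases from Slc7a11) held 164, 368, 222, 358 and 859 normalized counts in hypHSC 1 to 5 and no read in any qHSC library. GSMG0035250 (TEC gene Gm37199, 4066 bases, at 180733 bases) held 113, 310, 345, 232 and 505 in hypHSC 1 to 5 and again no read in qHSC. Against a limit of 3 reads per qHSC library they were at least 158-fold and 120.9-fold higher. The fitted log2 fold changes were 8.39 ± 0.53 (limma, adjusted p = 5.83e-07) and 8.08 ± 0.51 (limma, adjusted p = 5.92e-07), and both entries fall within GENCODE's Gm6209. Slc7a11 rose by 7.505 ± 0.50 on the log2 scale, from 13.9 ± 13.4 to 2121 ± 522 normalized counts.

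GSMG0058942 (Gm17749, a long non-coding RNA on chromosome 9, 887 bases from Ankdd1a) held 257, 283, 213, 169 and 333 normalized counts in hypHSC 1 to 5 and no read in qHSC, at least 101-fold higher. GSMG0049838, inside GENCODE's Xylt1, a xylosyltransferase that starts glycosaminoglycan chains, held 356 to 570 normalized counts in hypHSC and 0 to 3.62 in qHSC (log2 fold change 7.89 ± 0.52, limma, adjusted p = 7.32e-07). The row named Xylt1 held 84.6 ± 26.4 and 0.716 ± 1.18 normalized counts. For both of these entries the groups were far apart.

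Another 3 rises had qHSC 4 as the highest library of the lower group. GSMG0032938, in GENCODE's Cd93, a receptor of endothelial and myeloid cells, held 48.5 to 331 normalized counts in hypHSC and a read in qHSC 4 only, at 3.42 (log2 fold change 6.65 ± 0.68, limma, adjusted p = 1.67e-05). GSMG0005754, 183 bases from the leukocyte inhibitory receptor Lilrb4b, held 145 to 859 in hypHSC, and 9.05 in qHSC 1 and 42.8 in qHSC 4 with none in the other qHSC libraries (log2 fold change 6.21 ± 1.08, limma, adjusted p = 0.000722). GSMG0041012, in GENCODE's Ksr2, a scaffold of the Raf-MEK-ERK cascade, held 84.98 to 228 in hypHSC, and 22.2 in qHSC 4 (log2 fold change 6.12 ± 0.87, limma, adjusted p = 0.000171). The macrophage marker sum of qHSC 4, 109422 normalized counts, was also the highest of its group, and its part in these values was not tested. GSMG0008521 (9930022D16Rik, at 5541 bases from Amz2) held 118 to 194 in hypHSC and 0 to 3.94 in qHSC, a log2 fold change of 6.31 ± 0.56 (limma, adjusted p = 6.09e-06), whereas Amz2 had a log2 fold change of -0.12 ± 0.17 (limma, adjusted p = 0.619).

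**Figure D5:**
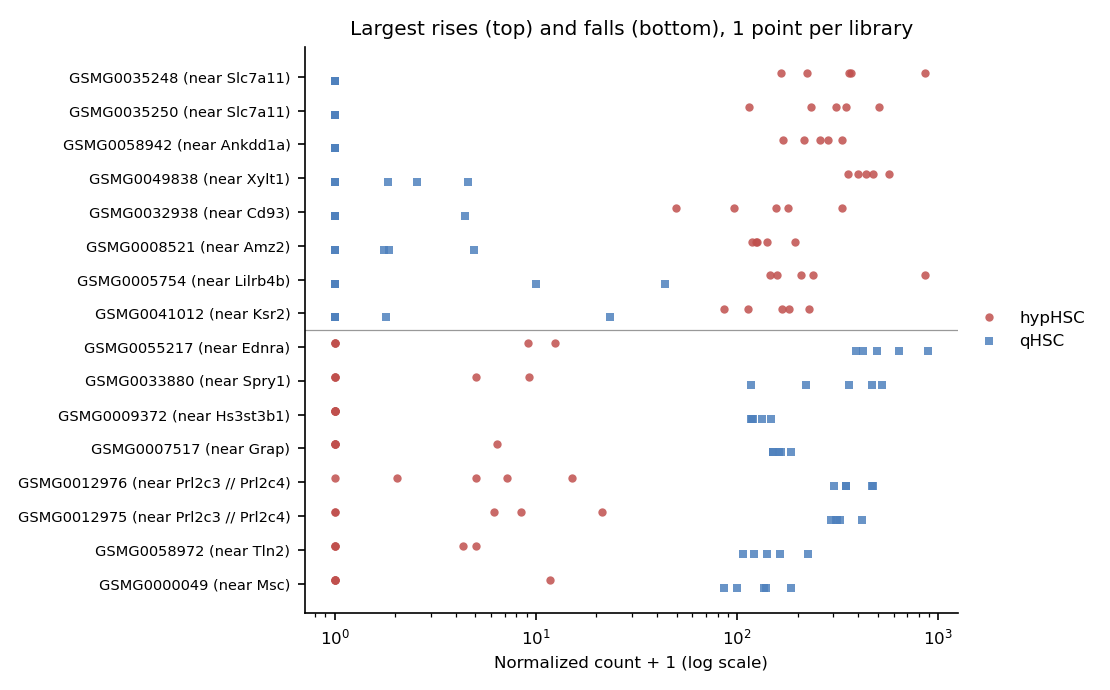
Normalized count plus 1 (horizontal, log scale) in each library for the 8 largest rises (upper rows) and 8 largest falls (lower rows) among entries apart from any row with a symbol, hypHSC as circles and qHSC as squares, with the nearest symbol in brackets. The lowest library of the higher group holds 48.5 normalized counts or more, and the highest library of the lower group 42.8 or fewer.

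The largest fall lay within the GENCODE span of an endothelin receptor gene. GSMG0055217 (TEC gene Gm45714, inside GENCODE's Ednra, the endothelin receptor of contractile cells) held 634, 888, 422, 495 and 388 normalized counts in qHSC 1 to 5. In hypHSC it held 8.09 and 11.4 in replicates 1 and 2 and no read in replicates 3 to 5. The log2 fold change was -7.71 ± 0.80 (limma, adjusted p = 1.86e-05), and Ednra fell by 7.75 ± 1.15 on the log2 scale (limma, adjusted p = 0.000235). This entry touches an annotated untranslated region and also overlaps the long non-coding RNA 4933431K23Rik. That RNA and Gm45714 lie on the plus strand and Ednra on the minus strand. The libraries were unstranded, so the strand of these reads is not known. GSMG0033880 (Gm43820), which begins 8 bases from Spry1, an inhibitor of receptor tyrosine kinase signalling, held 116 to 526 in qHSC and 0 to 8.28 in hypHSC. Its log2 fold change was -7.10 ± 0.77 (limma, adjusted p = 2.52e-05), and that of Spry1 was -5.26 ± 0.45.

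GSMG0009372 on chromosome 11 touched no GENCODE gene and lay 184409 bases from Hs3st3b1, a heparan sulfate sulfotransferase. It held 118, 119.3, 146, 116 and 133 normalized counts in qHSC 1 to 5, a narrow range, and no read in any hypHSC library. Against 3 reads per library it was at least 36.4-fold lower in hypHSC, and Hs3st3b1 fell by 5.32 ± 0.24 on the log2 scale. GSMG0007517, the third sequence above, lies 34173 bases from Grap, an adaptor of receptor signalling, in the GENCODE long non-coding RNA Gm73090. It held 150 to 184 in qHSC, and 5.39 in hypHSC 1 with no read in the other hypHSC libraries (log2 fold change -6.81 ± 0.62, limma, adjusted p = 7.03e-06).

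The remaining 4 falls were of like size. GSMG0012976 and GSMG0012975 lie in 1 GENCODE long non-coding RNA on chromosome 13, at 29669 and 23135 bases from Prl2c3 // Prl2c4, prolactin-family genes. They held 302 to 472.45 and 292 to 417 normalized counts in qHSC, 0 to 14.1 and 0 to 20.2 in hypHSC, and fell by 6.55 ± 0.68 and 6.34 ± 0.81 on the log2 scale (limma, adjusted p = 1.78e-05 and 8.35e-05). Of their stretches 49.1% and 33.6% occur elsewhere in the genome, so part of their reads could come from other places. GSMG0058972, outside every GENCODE gene and 49568 bases from the cytoskeletal linker Tln2, held 106 to 224 in qHSC and 0 to 4.04 in hypHSC (log2 fold change -6.30 ± 0.64, limma, adjusted p = 1.54e-05). GSMG0000049 (Gm37412), 32651 bases from the helix-loop-helix factor Msc, held 85.1 to 185 in qHSC and 10.8 in hypHSC 1, with no read in the other hypHSC libraries (log2 fold change -6.25 ± 0.75, limma, adjusted p = 5.21e-05). All 16 of these changes kept their direction and call in every other fit that gave a value.

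The 4 entries farthest from any symbol shared 52.8 to 78.5% of their stretches with other places in the genome. Of those that averaged 100 or more normalized counts, GSMG0034266 (Tpm3-rs7, chromosome 14) was the farthest, at 1515249 bases from 4930524C18Rik. It held 16390, 15079, 16485, 21964 and 22218 normalized counts in hypHSC 1 to 5 and 6541, 6038, 8589, 7935 and 8279 in qHSC 1 to 5. The groups were apart, at a log2 fold change of 1.30 ± 0.18 (limma, adjusted p = 0.00015), beside 1.25 ± 0.19 for Tpm3, a tropomyosin gene with which it shares 29.9% of stretches. The call was lost with equal library totals (0.87) and with Hprt, Pgk1 and Actb as the scale (0.36).

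The other 3 distant entries were not called. GSMG0060153 (198 bases, chromosome 2, at 1035470 bases from Lrrc4c) held 129, 63.2, 27.4, 3.15 and 526 normalized counts in hypHSC 1 to 5 and 13.5 to 131 in qHSC. Its stretches occur up to 35 times in the genome, and its 5 hypHSC values were scattered over the whole range of qHSC and beyond. GSMG0026223 (Bhmt1b, chromosome 18) shares 81.04% of stretches with Bhmt, a liver enzyme of methionine synthesis, and held 218 to 1032 in hypHSC and 345 to 1385 in qHSC. GSMG0012334 (chromosome 12, 210 bases, in the pseudogene Gm6863) held 2293 to 3974 in hypHSC and 1716 to 2291 in qHSC, without overlap, at a log2 fold change of 0.60 ± 0.18 (limma, adjusted p = 0.0195), under the fold threshold.

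Among entries apart from any symbol that averaged 100 or more normalized counts, 4 had the smallest log2 fold changes. GSMG0045780 (Gm68540, chromosome 6) held 961, 979, 1125, 1070 and 718 normalized counts in hypHSC 1 to 5 and 865, 1131, 883, 891 and 1032 in qHSC 1 to 5, at a log2 fold change of 0.01 ± 0.18. It shares 35.1% of its stretches with Rnps1, a splicing cofactor, which stood at 1381 ± 170 and 1376 ± 125. GSMG0042405 (4930522L14Rik) held 108 to 228 and 139 to 223, and GSMG0039350, in GENCODE's Ago3, an Argonaute protein of small RNA silencing, 239 to 560 and 274 to 423. GSMG0035399, in GENCODE's Kpna4, a nuclear import adaptor, held 70.1 to 460 and 124 to 235, whereas the row named Kpna4 rose by 1.14 ± 0.35 on the log2 scale (limma, adjusted p = 0.0192). The groups overlapped for all 4 entries.

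Some well-known long non-coding RNAs were among the entries without a symbol. Of 40 listed, 35 were rows with a symbol and 4 were found here by their span. Malat1 was found in neither way and is missing from the comparison. GSMG0028054 (chromosome 19, 5874736 to 5895511) is Neat1, the scaffold of nuclear paraspeckles. It held 11093, 24410, 38029, 30773 and 34721 normalized counts in hypHSC 1 to 5 and 5537, 4926, 9949, 9342 and 6060 in qHSC 1 to 5. The groups were apart, with hypHSC 1 close to the highest qHSC library, and the log2 fold change was 1.90 ± 0.34 (limma, adjusted p = 0.000918).

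GSMG0002631 is Dnm3os, the host of microRNAs of the miR-199 and miR-214 families in mesenchymal cells. It held 135, 268, 156, 118 and 200 normalized counts in hypHSC 1 to 5 and 471, 334, 1348, 499 and 530 in qHSC 1 to 5, and fell by 1.74 ± 0.37 on the log2 scale (limma, adjusted p = 0.00279). GSMG0036001, the small nucleolar RNA host Snhg8, held 266 to 407 and 318 to 433 (log2 fold change -0.17 ± 0.21, limma, adjusted p = 0.557). GSMG0061619, the microRNA host Mir17hg, held 7.56 to 65.0 and 35.2 to 61.5 (log2 fold change -0.91 ± 0.56, limma, adjusted p = 0.212). Of the 30 listed RNAs tested under a symbol 2 were called higher and 7 lower, beside 16.1% and 22.1% of all tested rows, with a median log2 fold change of -0.30 beside -0.25 over all rows. Among the 7 were Hand2os1, which lies beside the stellate cell factor Hand2 (log2 fold change -3.99 ± 0.27), Carmn (-5.60 ± 0.93) and Meg3 (-3.19 ± 0.75).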

How the data were processed

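RNA from sorted mouse liver cells was sequenced as unstranded, paired reads of 59 bases in 10 libraries, 5 per group. Per the labels and methods, the authors aligned reads with STAR to mm39, counted them with featureCounts (Subread 1.5.0) on FAST DB intervals and divided by DESeq2 size factors. The treatment of reads with several matches and of overlapping intervals is not given in the sources used here. The deposited signal is that normalized count. Multiplied by a recovered size factor, at least 99.998% of values per library were whole reads (tolerance 0.0051). The counts of GSMG0051025, GSMG0060123 and GSMG0012334 were multiples of 3 in every library, and how reads were counted on them is not known. Libraries were selected by RNA integrity, for hypHSC from more preparations than mice, and no source used here ties a library to an animal, so libraries may share one and p-values measure the spread between libraries. limma 3.58.1 (R 4.3.3) was fitted with a trend to log2(normalized count + 1) of 24320 rows reaching 10 normalized counts or more in 5 or more libraries, with Benjamini-Hochberg adjustment over all of them. Fold changes on this scale understate those of low rows. Library measures were compared by exact two-sided permutation over 252 arrangements. Stretches of 59 bases were searched on both strands of GRCm39 and in GENCODE M39 coding sequences. Repeat classes were planned but not computed, as the genome used carries no masking. Alternatives were edgeR 4.0.16, DESeq2 1.42.0, other scales, filters and pseudocounts, a replicate block and leaving out libraries. Named entries were the 8 most abundant, the 8 largest rises and falls apart from a symbol at a mean of 100 in the higher group without overlap, the 4 farthest and the 4 least changed at a mean of 100. Entries and lists were chosen with earlier results of these data known. The sequence of 1 abundant entry is not reported here.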

Additional observations from a re-analysis of the deposited data

Results flagged for a closer look

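Of 70 groups of 5 libraries examined (the named entries and 3 library measures), 13 had 1 library far from the other 4. For GSMG0032938 in qHSC, and GSMG0007517 and GSMG0000049 in hypHSC, the other 4 libraries held no read, so any read was flagged. A chance rate of about 1 in 20 does not hold for such values, so 13 of 70 cannot show an excess of outlying libraries. The high libraries of hypHSC were hypHSC 1 for the mitochondrial copy GSMG0060123 at 1188526 normalized counts, for GSMG0007517 at 5.39 and for GSMG0000049 at 10.8, and hypHSC 5 for GSMG0005754 at 859 and GSMG0060153 at 526. The low ones were hypHSC 3 for GSMG0056295 at 81706 and hypHSC 5 for GSMG0048321 at 56518. In qHSC the high libraries were qHSC 4 for GSMG0032938 at 3.42, GSMG0005754 at 42.8, GSMG0041012 at 22.2 and GSMG0060153 at 131, qHSC 3 for GSMG0008521 at 3.94 and qHSC 1 for GSMG0012975 at 417. Values of 3.42, 3.94 and 5.39 rest on 4 or 5 reads. The macrophage marker sum of qHSC 4 was 109422 normalized counts and that of qHSC 2 was 4320.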

How the results depend on the processing

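The counts of called entries (3520 in all, 1307 higher and 2213 lower) stayed within 1.5 times under edgeR, DESeq2 and the other settings except these. Keeping rows that averaged 100 or more normalized counts, which leaves 2755 entries, they were 1176, 541 and 635. With Hprt, Pgk1 and Actb as the scale 686 were higher and 4026 lower. Leaving out 1 library gave 3089 to 3629 called, 1157 to 1393 higher and 1922 to 2322 lower, and 2819 entries were called in all of these fits. With the replicate number as a block, 3440 entries were called, 1256 higher and 2184 lower, and no named entry changed its call. The numbers pair nothing by the labels, same-numbered libraries deviated together with correlations of only 0.0394 to 0.11, and the block is given for completeness.

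The difference in the share of reads, 3.28 percentage points, became -1.80 without the 10 most abundant entries, -0.36 without the mitochondrial copies and 0.22 (p = 0.373, exact permutation test) without them as a share of reads off the mitochondrial genome, the last 2 settings being added after the data were seen. It ranged from 2.04 to 3.97 with 1 library left out. Without qHSC 1, 2 or 5 its exact permutation p was 0.0556. The difference in entries detected, -1709, ranged from -2063 to -1179 and had an exact permutation p of 0.0556 without qHSC 3.

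Changes of sign were seen for uncalled entries only. With Hprt, Pgk1 and Actb as the scale log2 fold changes were -0.45 for GSMG0056295, -0.089 for GSMG0063041, -0.40 for GSMG0060153, -0.34 for GSMG0012334, -0.93 for GSMG0042405, -0.93 for GSMG0045780 and -0.92 for GSMG0039350. With equal totals they were -0.42, -0.41 and -0.40 for the last 3. With 12-week libraries only, GSMG0042405 was at -0.31 and GSMG0045780 at -0.0030. For GSMG0035399 the values were 0.11 with the upper quartile, 0.020 with TMM, 0.26 with edgeR and 0.23 with DESeq2. Leaving out 1 library gave -0.31 to 1.44 for GSMG0060153, -0.42 to 0.24 for GSMG0026223, -0.12 to 0.15 for GSMG0042405, -0.05 to 0.11 for GSMG0045780, -0.35 to 0.32 for GSMG0035399 and -0.18 to 0.12 for GSMG0039350. The cause was not tested. The depth limits values under 3 reads, and arrangements of 5 against 5 limit p to 0.00794.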
